A study of Mus musculus with 6 samples.

Results

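The proteasome is the large protease that degrades proteins tagged with ubiquitin, and it removes damaged and short-lived proteins in every cell, including the contractile proteins of the cardiomyocyte. Its barrel-shaped core particle (20S) is made of stacked rings of alpha and beta subunits, and 3 of the beta subunits carry the cutting sites inside the barrel. A regulatory cap (19S) sits on the ends of the core: its lid and base bind and strip the ubiquitin chain, and its ring of ATPases unfolds the substrate and feeds it in. Other activators can take the place of the cap, and dedicated chaperones put the particle together.

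The genes described here are all protein-coding genes whose symbol is Psma, Psmb, Psmc, Psmd or Psme followed by a number, without Psmb8, Psmb9 and Psmb10, and with at least 60 counts over the 6 libraries. This definition was met by 39 of 38293 genes in the counts, and 1 further gene, Psmb11 of the thymus-specific proteasome, had only 1 count in all. The 39 genes were 8 alpha subunits, 7 beta subunits, 6 ATPases of the cap, 3 other subunits of its base, 8 of its lid, 3 assembly chaperones (Psmd5, Psmd9 and Psmd10) and 4 activators (Psme1 to Psme4). The core thus comprised 15 genes and the cap 17. All 39 passed the filter on low counts, and the gene with the fewest counts was Psma8, at 118.

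RNA-seq of hearts was available 14 days after MI by permanent ligation of the left coronary artery, from 3 Zeb2 fl/fl mice (labelled WT) and 3 Zeb2 cKO mice, all backcrossed to C57BL/6J and, by the methods, operated at 8 to 10 weeks. Both genotypes carry the floxed Zeb2 allele and both were infarcted, and in the Zeb2 cKO mice Cre under the alpha myosin heavy chain promoter deletes Zeb2 in cardiomyocytes. The labels give the tissue as the border region of the infarct and the methods as the remote zone. The RNA came from all cells of the tissue, so that fewer cells of a type and less RNA per cell cannot be told apart.

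Total counts were 37.3 to 51.1 M per library, of which 14.3 to 19.02 M lay outside the mitochondrially encoded genes, and the 39 genes took 0.304% to 0.355% of the latter. Levels are given as CPM, counts scaled to library size after TMM normalization of the libraries, always in the order of replicates 1, 2 and 3. The targeted gene Zeb2 was measured at 61.3, 116 and 71.9 CPM in Zeb2 fl/fl and at 59.6, 72.6 and 66.5 CPM in Zeb2 cKO tissue, groups that overlap (log2 fold change -0.33, SE 0.25, edgeR adjusted p = 0.957; -0.0058 without Zeb2 fl/fl replicate 2). Zeb2 fl/fl replicate 2 stood apart from the other 5 libraries in its cell type markers. All 10 fibroblast markers and all 10 macrophage markers were highest in it (summed levels of 10450.4 against 1817 to 2555 CPM, and of 841 against 210.1 to 292 CPM), and 9 of 10 cardiomyocyte markers were lowest (35860.5 against 56379 to 68628 CPM). Of 10 endothelial markers 4 were highest and 6 lowest in this library, and only 4 of 10 lymphocyte markers passed the filter. For genes given with their levels, the log2 fold change without it stands beside the main value where the sign turned or the value moved by over 1.5 times, and its part in the results beyond these values was not tested.

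No proteasome gene passed the test between the genotypes. With edgeR's quasi-likelihood test, 0 of the 39 genes had an adjusted p under 0.05, as had 0 of all 14746 genes tested (0.0%), and 0 of the 39 had an unadjusted p under 0.05, beside 280 of all genes (1.9%). DESeq2 also called 0 of the 39, and 2 of 14725 genes overall (0.0136%), and 0 of the 39 had an unadjusted p under 0.05 with it, against 2.45% of all genes. The adjusted p values of the 39 genes ran from 0.957 to 0.999 and the lowest unadjusted p was 0.119, for Psmd6. A p that misses the threshold does not show that a gene was at the same level in both genotypes, and the intervals of the fold changes give the sizes that remain possible.

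These intervals were narrow for most subunits. The 95% interval of the fold change lay within 1.5-fold in either direction for 34 of the 39 genes, compared with 42.1% of all genes tested, and within 2-fold for 38 of them, compared with 74.0%. The 5 genes whose interval reached past 1.5-fold were Psma8, Psmb5, Psmd3, Psme2 and Psme4, and only that of Psma8 reached past 2-fold. For 10 of the 39 the interval lay even within 1.25-fold (6.39% of all genes tested). These shares of all genes are not matched for level. The median standard error was 0.127 for the 39 genes and 0.208 for all genes tested. It was 0.159 for the 7375 of them in the CPM range of the middle 80% of the 39 genes. The widest bounds on the log2 scale were -1.17, for Psma8, and 0.60, for Psmd3.

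**Figure D1:**
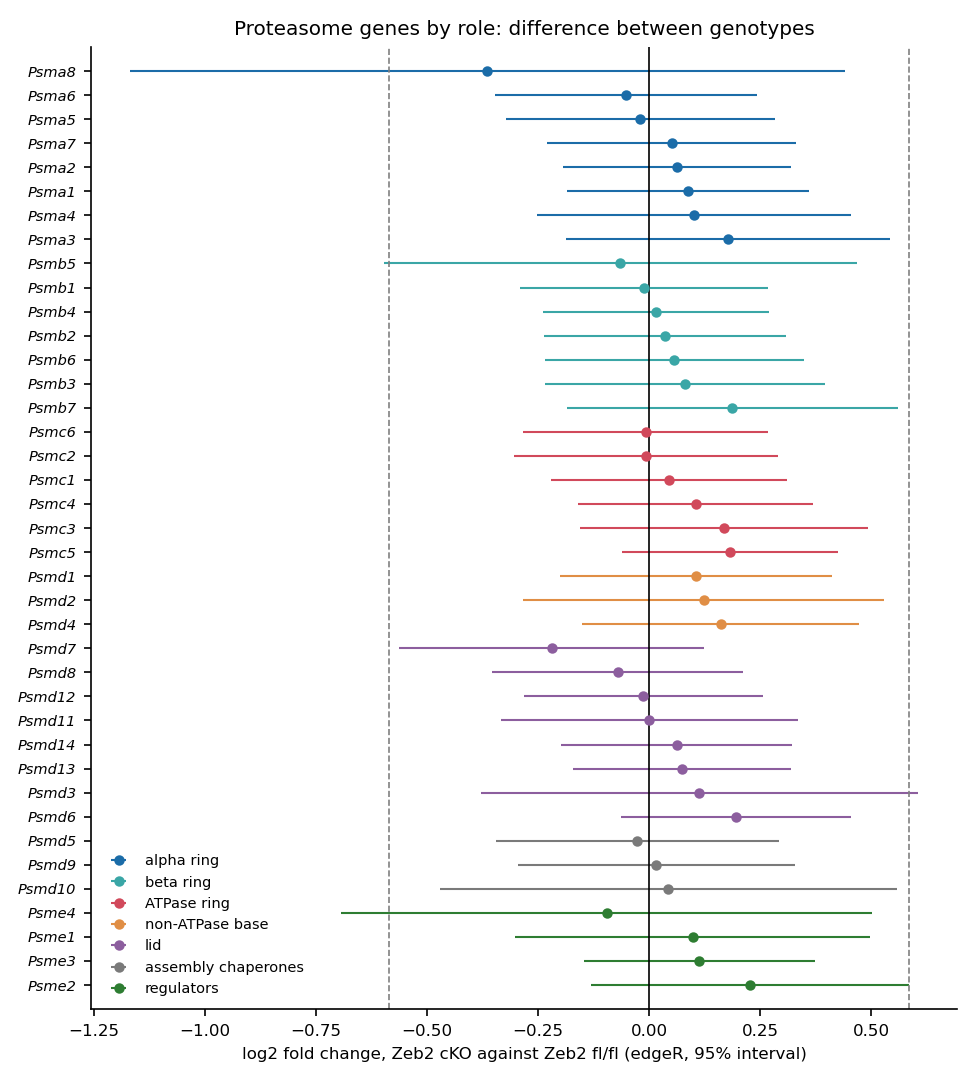
Log2 fold change of each of the 39 proteasome genes of Zeb2 cKO against Zeb2 fl/fl tissue (x axis, log2 scale; points, edgeR estimate; lines, 95% interval), grouped and coloured by role, with dashed lines at a 1.5-fold difference. Every interval crosses 0, and 34 of 39 lie between the dashed lines.

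The estimates themselves lay close to 0 on both sides. Of the 39 genes 27 had a log2 fold change above 0 (69.2%, compared with 48.6% of all genes tested) and 12 one below 0, with a median of 0.057 against -0.0069 over all genes tested. Values ran from -0.36 for Psma8 to 0.23 for Psme2, and standard errors from 0.10 to 0.34. The medians of core and cap lay close together: the log2 fold change was 0.051 for the 15 core genes, with 10 above 0, and 0.074 for the 17 cap genes, with 12 above 0. By role it was 0.057 for the alpha ring, 0.035 for the beta ring, 0.074 for the ATPases, 0.12 for the other base subunits, 0.032 for the lid, 0.016 for the assembly chaperones and 0.10 for the activators.

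These small positive medians moved with single libraries of either genotype. Without Zeb2 fl/fl replicate 2, the library that stood apart, the median was 0.012 over the 39 genes, with 24 above 0, and 0.012 and 0.0031 for core and cap. It was 0.023 over the 39 genes without Zeb2 fl/fl replicate 1 (core 0.0033, cap 0.092), 0.11 without Zeb2 fl/fl replicate 3 (core 0.098, cap 0.12), 0.031 without Zeb2 cKO replicate 1 (core 0.0069, cap 0.050) and 0.078 and 0.064 without Zeb2 cKO replicates 2 (core 0.030, cap 0.11) and 3 (core 0.093, cap 0.064). Single genes also turned sign, 11 of the 39 without Zeb2 fl/fl replicate 2 (Psma5, Psmb1, Psmb4, Psmb6, Psmc1, Psmd2, Psmd3, Psmd5, Psmd8, Psmd9 and Psmd11) and 2 to 8 without another library. Among the 23 genes whose exons overlap no other gene and whose transcript shares no long stretch with one, the median was 0.035, with 13 above 0.

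Groups that did not overlap were found for 2 of the 39 genes (5.13%), both with all Zeb2 cKO libraries above all Zeb2 fl/fl libraries, against 6.36% of all genes tested in either direction, 3.39% in this one and 2.97% in the opposite one. The share among proteasome genes was thus near the background. Both genes belong to the cap, Psmc5 to the ATPase ring and Psmd6 to the lid.

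Psmc5 (ENSMUSG00000020708) encodes an ATPase of the ring that unfolds substrates, and lies on the plus strand of chromosome 11 of GRCm38, chr11:106256154-106263120. It lay at 15.6, 15.3 and 17.1 CPM in Zeb2 fl/fl and at 18.4, 18.2 and 18.0 CPM in Zeb2 cKO hearts (16.0 ± 0.948 and 18.2 ± 0.203, mean ± SD, n = 3). The Zeb2 cKO libraries lay close together, each above the highest Zeb2 fl/fl library, replicate 3. Its log2 fold change was 0.18 (SE 0.10, 95% interval -0.06 to 0.43, edgeR adjusted p = 0.957; exact permutation test, two-sided, p = 0.1, the smallest that 3 against 3 allows), and 0.15 without Zeb2 fl/fl replicate 2.

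Psmd6 (ENSMUSG00000021737), a structural subunit of the lid, lies on the minus strand, chr14:14112174-14120984. Its levels were 23.5, 21.5 and 24.8 CPM in Zeb2 fl/fl and 27.8, 26.8 and 25.3 CPM in Zeb2 cKO hearts (23.3 ± 1.67 and 26.6 ± 1.24, SD, n = 3). The lowest Zeb2 cKO library and the highest Zeb2 fl/fl library nearly touched. Its log2 fold change of 0.19 (SE 0.11, adjusted p = 0.957) became 0.14 without Zeb2 fl/fl replicate 2.

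**Figure D2:**
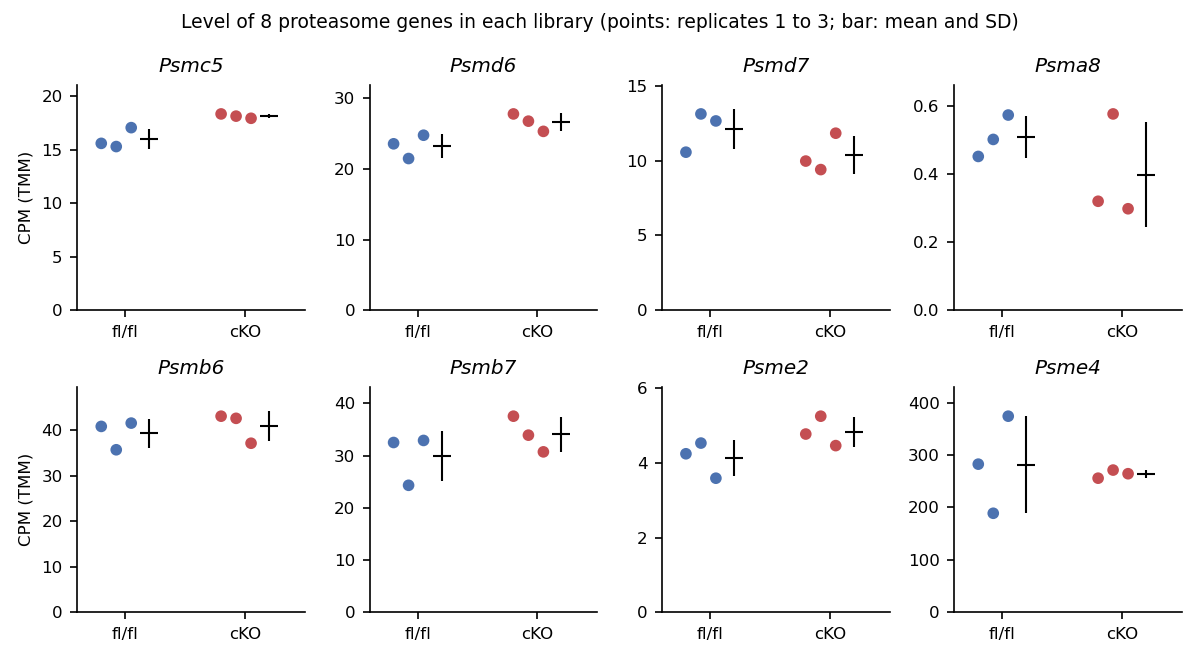
CPM of 8 proteasome genes (y axis, TMM-scaled, from 0) in the 3 Zeb2 fl/fl (blue) and 3 Zeb2 cKO libraries (red), with mean and SD as black bars. Only Psmc5 and Psmd6 have groups that do not overlap, and Psme4 ranges from 189 to 374 CPM within the Zeb2 fl/fl group.

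The promoters of both genes are given here because their libraries were the only ones that separated by genotype, beside those of Psmd8, with the most ZEB2-type E-boxes of the proteasome genes matched, and of Psmb6, with the highest level per length. Each line holds the 250 bases before the transcription start from RefSeq (GRCm38.p6), 5′ to 3′ on the strand of the gene. Capitals mark matches on either strand to CACCTG, the E-box that ZEB2 is known to bind, to CCGGAAG, an ETS factor site, and to TGACNNNGC, the core of the antioxidant response element that NFE2L1 and NFE2L2 bind, factors known to drive proteasome genes. No match shown overlaps another.
Psmc5, chr11:106255935-106256184, plus strand: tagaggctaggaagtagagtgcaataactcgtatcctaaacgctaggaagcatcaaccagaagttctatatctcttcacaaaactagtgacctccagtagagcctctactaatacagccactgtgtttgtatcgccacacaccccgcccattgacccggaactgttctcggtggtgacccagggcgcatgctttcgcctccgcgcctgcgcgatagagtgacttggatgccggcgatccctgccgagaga
Psmd6, chr14:14120946-14121195, minus strand: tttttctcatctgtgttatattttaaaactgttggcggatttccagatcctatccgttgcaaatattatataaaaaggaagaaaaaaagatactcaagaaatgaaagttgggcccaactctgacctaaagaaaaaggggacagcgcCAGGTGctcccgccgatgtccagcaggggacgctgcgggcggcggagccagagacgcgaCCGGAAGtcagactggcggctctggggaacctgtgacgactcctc
Psmd8, chr7:29180674-29180923, minus strand: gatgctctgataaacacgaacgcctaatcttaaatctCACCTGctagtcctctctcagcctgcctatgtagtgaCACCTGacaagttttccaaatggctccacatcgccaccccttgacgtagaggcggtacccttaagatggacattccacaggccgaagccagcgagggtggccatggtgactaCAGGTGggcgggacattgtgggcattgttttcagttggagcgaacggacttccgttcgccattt
Psmb6, chr11:70525107-70525356, plus strand: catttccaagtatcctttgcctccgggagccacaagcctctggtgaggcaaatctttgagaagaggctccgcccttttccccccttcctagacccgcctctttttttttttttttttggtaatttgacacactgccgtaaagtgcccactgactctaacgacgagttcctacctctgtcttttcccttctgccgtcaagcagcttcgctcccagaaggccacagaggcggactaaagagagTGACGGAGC

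Promoter windows of 300 bases (these 250 and the 50 after the start) were matched for 32 of the 39 genes. Not matched were Psma8, Psmb1, Psmb2, Psmb7, Psmc3, Psmd3 and Psmd7. An ETS site stood in the promoter of 12 of the 32 genes (37.5%), compared with 9.93% of all 27025 genes of the promoter table. The E-box CACCTG was found in 5 of the 32 (15.6%, all genes 22.6%), namely Psma3, Psmd2, Psmd5, Psmd6 and Psmd8. The antioxidant response core was found in 6 (18.8%, all genes 14.0%): Psmb5, Psmb6, Psmc6, Psmd9, Psmd12 and Psme4. CCAAT, the box bound by NF-Y, was found in 12 (37.5%, all genes 41.1%). A match describes letters in a window and says nothing of binding in these hearts, and the log2 fold changes of the genes with an E-box ran from -0.07 (Psmd8) to 0.19 (Psmd6).

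In the core, the alpha subunits form the outer rings and the gate of the barrel. Their log2 fold changes ran from -0.36 for Psma8 to 0.18 for Psma3, with 5 of 8 above 0. Psma3 (ENSMUSG00000060073) stood at 5.42, 6.63 and 6.56 CPM in Zeb2 fl/fl and at 8.09, 6.43 and 6.53 CPM in Zeb2 cKO hearts, where replicate 1 alone lay above all other libraries (log2 fold change 0.18, SE 0.15, adjusted p = 0.957). Psma8 encodes the alpha subunit of the testis proteasome and was barely present, at 0.451, 0.501 and 0.573 CPM in Zeb2 fl/fl and 0.320, 0.576 and 0.298 CPM in Zeb2 cKO hearts. The genotypes overlapped, and for its log2 fold change of -0.36 the standard error was the largest of the 39 genes (0.34, adjusted p = 0.957). The other 6 alpha subunits, Psma1, Psma2 and Psma4 to Psma7, had log2 fold changes between -0.05 and 0.10.

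The cutting subunits of the core are Psmb5, Psmb6 and Psmb7. Psmb6 (ENSMUSG00000018286, chr11:70525367-70527858), which cuts after acidic residues, lay at 40.9, 35.7 and 41.6 CPM in Zeb2 fl/fl and 43.1, 42.6 and 37.2 CPM in Zeb2 cKO hearts. Zeb2 fl/fl replicate 2 and Zeb2 cKO replicate 3 were the lower libraries, and the groups overlapped (39.4 ± 3.19 and 41.0 ± 3.30, SD, n = 3; log2 fold change 0.06, SE 0.12, adjusted p = 0.961; -0.0063 without the former). Psmb7 (ENSMUSG00000026750), which cuts after basic residues, stood at 32.5, 24.3 and 32.9 CPM in Zeb2 fl/fl and 37.5, 33.9 and 30.7 CPM in Zeb2 cKO hearts. Its log2 fold change of 0.19 (SE 0.16, adjusted p = 0.957) was 0.06 without Zeb2 fl/fl replicate 2, which held the lowest level. Part of the Psmb7 exons, 11.8%, overlaps Nek6 on the opposite strand, and 35.1% of the transcript used for its level per kb is shared with Nek6. Whether the counting used strand is not stated. Psmb5 (ENSMUSG00000022193), which cuts after hydrophobic residues and is the main target of proteasome inhibitors, lay at 3.50, 2.73 and 4.74 CPM in Zeb2 fl/fl and 3.68, 3.16 and 3.65 CPM in Zeb2 cKO hearts (log2 fold change -0.06, SE 0.22, adjusted p = 0.979; -0.23 without Zeb2 fl/fl replicate 2). Psmb5 is an uncertain count, since 88.4% of its transcript is nearly identical to that of a processed pseudogene. The other 4 beta subunits, Psmb1 to Psmb4, had log2 fold changes between -0.01 and 0.08.

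Immune cells and cells exposed to interferon replace the cutting subunits Psmb5, Psmb6 and Psmb7 by Psmb8, Psmb9 and Psmb10, which gives the immunoproteasome. Relative to its counterpart, in counts per kb of transcript, Psmb8 stood at 0.824, 2.05 and 0.731 times Psmb5 in Zeb2 fl/fl and at 0.714, 1.07 and 0.845 times in Zeb2 cKO hearts, a ratio as uncertain as the count of Psmb5. Psmb9 stood at 0.0307, 0.0659 and 0.0399 times Psmb6 in Zeb2 fl/fl and 0.0260, 0.0370 and 0.0322 times in Zeb2 cKO hearts. Both ratios were highest in Zeb2 fl/fl replicate 2, the library with the highest macrophage markers. The Psmb10 to Psmb7 ratio was also highest there but more even, at 0.475, 0.497 and 0.406 in Zeb2 fl/fl and 0.356, 0.479 and 0.439 in Zeb2 cKO hearts.

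Summed over the 3 genes on each side, the immunoproteasome to constitutive ratio was 0.218, 0.285 and 0.204 in Zeb2 fl/fl and 0.175, 0.229 and 0.215 in Zeb2 cKO hearts (0.235 ± 0.0435 and 0.206 ± 0.0280, SD, n = 3). With Psmb5 left out of the constitutive side it was 0.228, 0.298 and 0.217 in Zeb2 fl/fl and 0.183, 0.239 and 0.226 in Zeb2 cKO hearts. The groups overlapped, and the log2 difference between genotypes of -0.18 was -0.039 without Zeb2 fl/fl replicate 2, -0.28 without Zeb2 fl/fl replicate 3 and -0.071 without Zeb2 cKO replicate 1. In level, Psmb8 stood at 5.23, 10.2 and 6.28 CPM in Zeb2 fl/fl and 4.76, 6.13 and 5.58 CPM in Zeb2 cKO hearts (log2 fold change -0.40, SE 0.26, adjusted p = 0.957; -0.07 without Zeb2 fl/fl replicate 2). For Psmb9, with 2.12, 3.99 and 2.81 CPM in Zeb2 fl/fl and 1.90, 2.67 and 2.03 CPM in Zeb2 cKO hearts, it was -0.44 (SE 0.27, adjusted p = 0.957; -0.17 without that library). For Psmb10, with 17.4, 13.6 and 15.1 CPM in Zeb2 fl/fl and 15.1, 18.3 and 15.2 CPM in Zeb2 cKO hearts, it was 0.07 (SE 0.14, adjusted p = 0.957; -0.0029 without it). Whether these values follow from the macrophage content of that library was not tested.

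**Figure D3:**
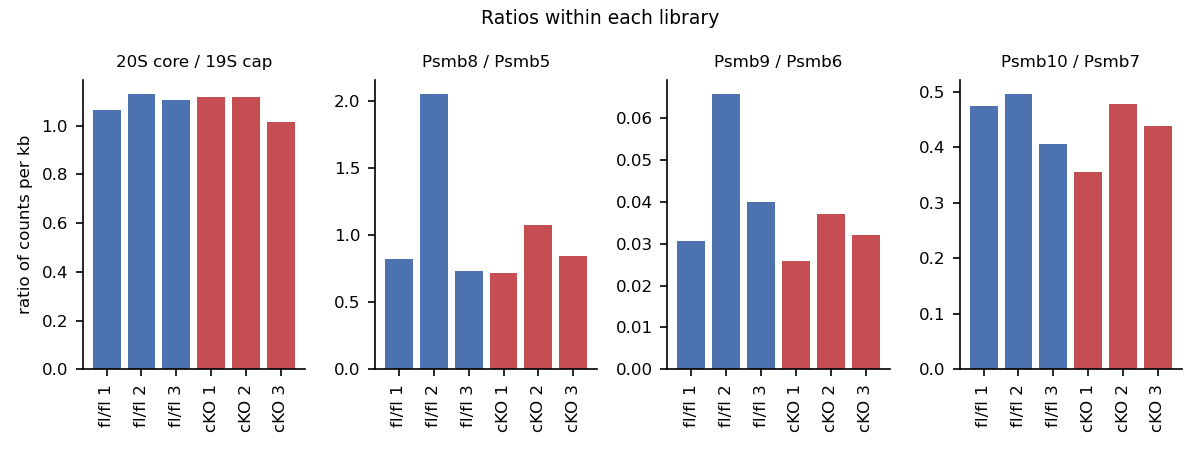
Ratios of counts per kb of transcript within each library (y axis, from 0; blue, Zeb2 fl/fl; red, Zeb2 cKO): all 15 core genes to all 17 cap genes, and each immunoproteasome subunit to the subunit it replaces. The core to cap ratio stays between 1.02 and 1.13, and Psmb8 to Psmb5 reaches 2.05 in Zeb2 fl/fl replicate 2, where the count of Psmb5 is uncertain because of a near-identical pseudogene.

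The balance of core and cap differed little between libraries. The ratio of summed core to summed cap counts per kb was 1.06, 1.13 and 1.11 in Zeb2 fl/fl and 1.12, 1.12 and 1.02 in Zeb2 cKO hearts (1.10 ± 0.0337 and 1.08 ± 0.0590, SD, n = 3). The groups overlapped, and the mean log2 ratio differed between the genotypes by -0.024, which turned to 0.022 without Zeb2 cKO replicate 3. Since it is formed within a library, this ratio does not depend on the scaling between libraries.

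In the cap, the 6 ATPases had log2 fold changes between -0.01 and 0.18. Psmc6 (ENSMUSG00000021832) was the lowest, at 46.0, 45.6 and 52.7 CPM in Zeb2 fl/fl and 49.8, 48.1 and 45.7 CPM in Zeb2 cKO hearts, so that each genotype spanned the other (log2 fold change -0.0082, SE 0.12, adjusted p = 0.996; -0.042 without Zeb2 fl/fl replicate 2). Psmc1 to Psmc4 lay between Psmc6 and Psmc5, at -0.0065 to 0.17. The 3 other base subunits all lay above 0: the scaffold subunits Psmd1 and Psmd2 at 0.11 and 0.12, and the ubiquitin receptor Psmd4 at 0.16. Psmd1 stood at 47.4, 41.5 and 52.6 CPM in Zeb2 fl/fl and 49.9, 48.8 and 53.6 CPM in Zeb2 cKO hearts. Psmd4 stood at 35.4, 27.3 and 33.8 CPM in Zeb2 fl/fl and 37.1, 34.8 and 35.9 CPM in Zeb2 cKO hearts, with a single low library. All 3 were lowest in this Zeb2 fl/fl replicate 2, and without that library their values were 0.02, -0.04 and 0.06.

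The lid held the lowest and the highest value of the cap, Psmd7 and Psmd6. Psmd7 (ENSMUSG00000039067, chr8:107580381-107588464, minus strand), the partner of the ubiquitin-removing enzyme Psmd14, lay at 10.6, 13.1 and 12.7 CPM in Zeb2 fl/fl and 9.97, 9.40 and 11.8 CPM in Zeb2 cKO hearts (12.1 ± 1.36 and 10.4 ± 1.27, SD, n = 3). Replicate 3 of Zeb2 cKO lay above replicate 1 of Zeb2 fl/fl, the other Zeb2 cKO libraries below all Zeb2 fl/fl libraries. Its log2 fold change was -0.22 (SE 0.14, 95% interval -0.56 to 0.12, adjusted p = 0.957) and -0.15 without Zeb2 fl/fl replicate 2. Psmd14 itself stood at 19.6, 20.7 and 23.1 CPM in Zeb2 fl/fl and 22.9, 21.6 and 21.8 CPM in Zeb2 cKO hearts (log2 fold change 0.06, SE 0.11, adjusted p = 0.957). Psmd3, a large lid subunit, lay at 26.3, 15.4 and 24.0 CPM in Zeb2 fl/fl and 22.0, 23.0 and 26.2 CPM in Zeb2 cKO hearts, with its lowest level in Zeb2 fl/fl replicate 2 (log2 fold change 0.11, SE 0.21, adjusted p = 0.957; -0.08 without that library). The other 4 lid genes, Psmd8, Psmd11, Psmd12 and Psmd13, had log2 fold changes between -0.07 and 0.07.

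The assembly chaperones of the base were also close to 0, with log2 fold changes of -0.03 (Psmd5), 0.02 (Psmd9) and 0.04 (Psmd10). Psmd10, known as the oncoprotein gankyrin, stood at 2.18, 3.35 and 2.81 CPM in Zeb2 fl/fl and 2.76, 2.49 and 3.35 CPM in Zeb2 cKO hearts, and the difference of 0.04 became 0.21 on the log2 scale when Zeb2 fl/fl replicate 2 was left out and -0.10 when replicate 1 was. Psmd5 lay at 8.79, 11.1 and 9.06 CPM in Zeb2 fl/fl and 10.1, 9.17 and 9.12 CPM in Zeb2 cKO hearts, and was 0.09 on the log2 scale without Zeb2 fl/fl replicate 2.

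Among the activators, Psme4 (PA200 in the protein literature), a single large protein that caps the core without ATP, was by far the most counted proteasome gene. It stood at 283, 189 and 374 CPM in Zeb2 fl/fl and at 256, 271 and 264 CPM in Zeb2 cKO hearts (282 ± 92.5 and 264 ± 7.75, SD, n = 3), and made up 18.5% to 28.3% of all counts of the 39 genes. The Zeb2 fl/fl libraries spread widely to either side of the 3 Zeb2 cKO libraries, which lay close together. Its log2 fold change of -0.10 (SE 0.25, 95% interval -0.69 to 0.50, adjusted p = 0.967) was -0.31 without Zeb2 fl/fl replicate 2 and 0.16 without replicate 3. Without Psme4, the summed level of the other 38 genes was 888, 830.1 and 949 CPM in Zeb2 fl/fl and 962, 920.1 and 913 CPM in Zeb2 cKO hearts, and these groups overlapped as well.

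Psme1 and Psme2 encode the subunits of the interferon-inducible activator ring of the core. Psme1 lay at 33.2, 24.1 and 26.8 CPM in Zeb2 fl/fl and 33.8, 30.9 and 25.4 CPM in Zeb2 cKO hearts (log2 fold change 0.10, SE 0.17, adjusted p = 0.957; 0.0024 without Zeb2 fl/fl replicate 2). Psme2 stood at 4.25, 4.53 and 3.59 CPM in Zeb2 fl/fl and 4.78, 5.25 and 4.47 CPM in Zeb2 cKO hearts, and its log2 fold change of 0.23 (SE 0.15, adjusted p = 0.957) was the highest of the 39 genes. The nuclear activator Psme3 lay at 16.6, 16.0 and 16.2 CPM in Zeb2 fl/fl and 19.2, 16.3 and 17.3 CPM in Zeb2 cKO hearts (log2 fold change 0.11, SE 0.11, adjusted p = 0.957).

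Libraries differed in how far the proteasome genes lay from their mean over the 6 libraries. The SD of the 39 deviations was 0.194 on the log2 scale in Zeb2 fl/fl replicate 2 and 0.113 to 0.132 in the other 5 libraries. Against the mean of Zeb2 fl/fl replicates 1 and 3, 28 of the 39 genes were lower and 11 higher in replicate 2, with a median log2 difference of -0.093 and a range from -0.78 (Psme4) to 0.44 (Psmd10). Psmd3 (-0.70), Psmb5 (-0.58) and Psmd2 (-0.56) were also far below, and Psmd5 (0.31) and Psmd8 (0.21) above. Within 0.2 of that mean lay 24 of the 39 genes (61.5%), compared with 29.0% of all genes tested. Over all libraries, the median SD within a genotype was 0.131 on the log2 scale for the 39 genes, 0.246 for all genes tested and 0.195 for the 7375 of them in the CPM range of the middle 80% of the 39 genes.

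**Figure D4:**
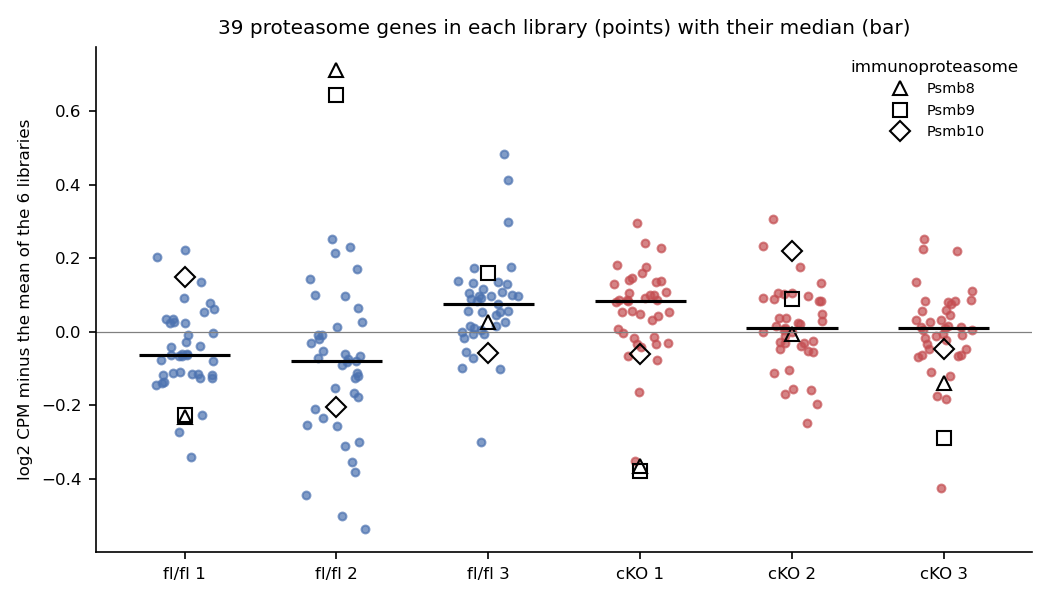
Log2 CPM of the 39 proteasome genes minus each gene's mean over the 6 libraries (y axis; points; offset of 0.125 CPM), by library (blue, Zeb2 fl/fl; red, Zeb2 cKO), with the median as a bar and the 3 immunoproteasome genes as open symbols. The points spread most in Zeb2 fl/fl replicate 2 (SD 0.194), where Psmb8 and Psmb9 lie above all 39 genes.

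Levels per length of a single annotated transcript per gene differed widely between subunits. Psmb6 was highest, at 50.4 ± 3.80 CPM per kb (SD over the 6 libraries), followed by Psme4 at 42.0 ± 9.17, whose spread reaches its neighbours on both sides, and Psma7 at 39.4 ± 2.78. Psmc3 (32.7 ± 3.52), Psmb2 (32.6 ± 2.13) and Psma1 (30.3 ± 2.11) came next and lay within each other's spread. By role, the median level was 26.2 CPM per kb for the beta ring, 18.3 for the ATPases, 17.1 for the other base subunits, 16.2 for the activators, 13.8 for the alpha ring, 10.8 for the lid and 1.97 for the assembly chaperones. The chaperones, which are not part of the finished particle, were all under 2.2 CPM per kb, and the testis subunit Psma8 was lowest at 0.268 ± 0.0718.

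The reads of some subunits could be assigned to more than 1 gene. Exons of 10 of the 39 genes overlap another gene, most in Psmd9 (25.5% with Gm26745 on the opposite strand). For 8 of the 39 genes more than 50% of the transcript is nearly identical (at least 75 bases at 95% identity) to other genes, and their median level was 8.99 CPM per kb, compared with 18.0 for the other 31. Both lists span a wide range, from 3.87 to 17.9 and from 0.268 to 50.4 CPM per kb. How the counting treated reads that map to several places is not stated.

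For 5 subunits a near-identical copy had counts of its own. The copy Psme2b on chromosome 11 held 65.2% of the counts of Psme2 and Psme2b together, at 8.04, 9.16 and 7.40 CPM in Zeb2 fl/fl and 8.03, 9.03 and 8.78 CPM in Zeb2 cKO hearts. Summed with its copy, Psme2 had a log2 fold change of 0.13 in place of 0.23 (SE 0.13, adjusted p = 0.957). The share of the copy was 36.7% for Psma5 and Gm8394, 21.3% for Psma4 and Gm6542, 20.7% for Psmd11 and A730017L22Rik, and 12.7% for Psmd2 and Gm5422. With these sums in place of the single counts, again 0 of the 39 genes had an adjusted p under 0.05, and the median log2 fold change stayed at 0.057.

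**Figure D5:**
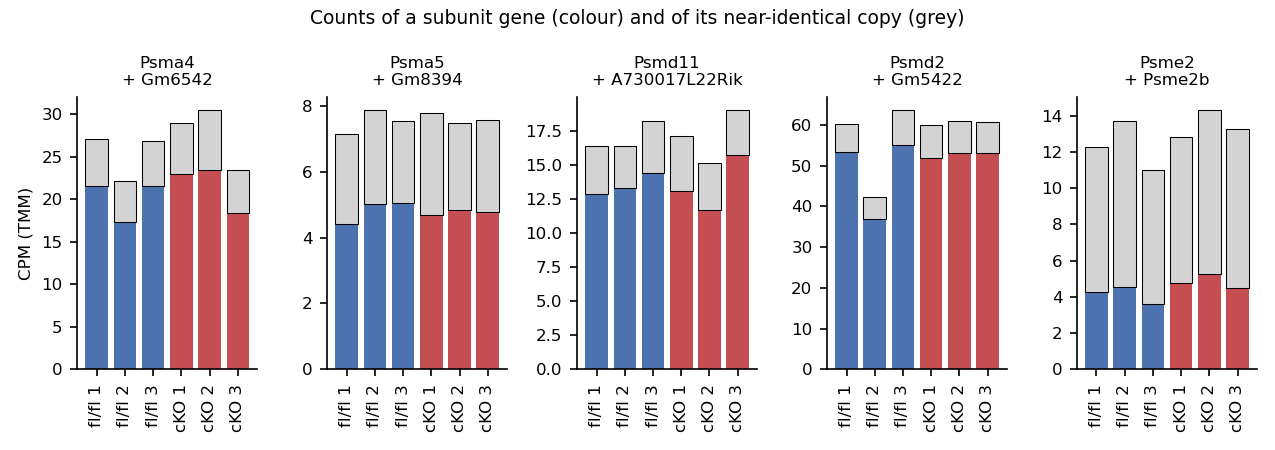
CPM of 5 proteasome genes (coloured; blue, Zeb2 fl/fl; red, Zeb2 cKO) with the CPM of their near-identical copy stacked on top (grey), in each library (y axis, from 0). Psme2b holds 65.2% of the stacked counts, Gm5422 only 12.7%.

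Of 33 further genes of the pathway, 31 were tested, and 0 had an adjusted p under 0.05 or an unadjusted p under 0.05. Their log2 fold changes were above 0 for 22 and below 0 for 9, with a median of 0.034. The core is assembled with Pomp, the maturation factor of the core, and with Psmg1 to Psmg4, chaperones of the alpha ring. Psmg1 stood at 4.96, 3.53 and 4.69 CPM in Zeb2 fl/fl and 5.56, 5.32 and 4.86 CPM in Zeb2 cKO hearts, the highest log2 fold change of these genes (0.26, SE 0.17, adjusted p = 0.957; 0.12 without Zeb2 fl/fl replicate 2), and Pomp stood at 19.2, 20.1 and 20.03 CPM and at 24.3, 17.0 and 20.2 CPM (0.05, SE 0.15, adjusted p = 0.968). Both overlapped between genotypes.

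Shuttle proteins carry ubiquitin-tagged substrates to the cap. Rad23b was measured at 51.7, 39.4 and 46.2 CPM in Zeb2 fl/fl and 58.7, 54.2 and 44.1 CPM in Zeb2 cKO hearts (log2 fold change 0.19, SE 0.16, adjusted p = 0.957; 0.098 without Zeb2 fl/fl replicate 2). Ubqln2 had the lowest log2 fold change of the pathway genes (-0.47, SE 0.23, edgeR unadjusted p = 0.078, adjusted p = 0.957). It stood at 6.13, 9.82 and 6.82 CPM in Zeb2 fl/fl and 4.80, 4.95 and 6.70 CPM in Zeb2 cKO hearts. Without Zeb2 fl/fl replicate 2 its log2 fold change was -0.23, and the lowest of the pathway genes was -0.48. Adrm1, a ubiquitin receptor of the cap, was measured at 3.19, 2.14 and 3.26 CPM in Zeb2 fl/fl and 3.14, 3.13 and 3.42 CPM in Zeb2 cKO hearts (log2 fold change 0.18, SE 0.20, adjusted p = 0.957), and without Zeb2 fl/fl replicate 2 the value was 0.0089. It shares 88.5% of its transcript with Gm9774, which held 56.2% of their counts, and summed with it the log2 fold change was 0.065.

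The polyubiquitin gene Ubb lay at 23.0, 43.0 and 25.2 CPM in Zeb2 fl/fl and 25.1, 25.9 and 27.1 CPM in Zeb2 cKO hearts, with a log2 fold change of -0.23 (SE 0.24, adjusted p = 0.957) that was 0.11 without Zeb2 fl/fl replicate 2, its highest library. Ubb is an uncertain count too, with 77.8% of its transcript shared with other genes. Nfe2l1, the factor that raises proteasome genes when the proteasome is blocked, stood at 193, 124 and 182 CPM in Zeb2 fl/fl and 178, 169 and 182 CPM in Zeb2 cKO hearts (log2 fold change 0.09, SE 0.19, adjusted p = 0.963; -0.08 without Zeb2 fl/fl replicate 2). Nfe2l2, the factor of the antioxidant response, lay at 25.9, 33.9 and 24.8 CPM in Zeb2 fl/fl and 25.3, 26.9 and 25.9 CPM in Zeb2 cKO hearts (log2 fold change -0.12, SE 0.15, adjusted p = 0.957; 0.04 without that library). In Zeb2 fl/fl replicate 2, Nfe2l1 was the lowest and Nfe2l2 the highest of the 6 libraries. Akirin2, which brings proteasomes into the nucleus, was the only one of the 31 further genes (3.23%, against 6.36% of all genes tested) whose groups did not overlap, at 12.9, 13.9 and 14.5 CPM in Zeb2 fl/fl and 15.4, 14.6 and 14.9 CPM in Zeb2 cKO hearts (log2 fold change 0.12, SE 0.10, adjusted p = 0.957), and it was chosen after its values were seen.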

How the data were processed

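RNA depleted of ribosomal RNA was sequenced by the authors as stranded, single-end reads of 75 bases, and the authors deposited raw counts per gene (Gencode M4, GRCm38, STAR workflow). The STAR version, strand option and handling of multi-mapped reads are not given in the sources used here. The following was computed from the deposited counts. Groups came from the labels, with 3 libraries each, and 0 columns of the table were unmatched. That the libraries are separate mice is taken from the methods. Genes were tested with edgeR 4.0.16 (R 4.3.3): TMM, filterByExpr with defaults, glmQLFit and glmQLFTest on genotype over 14746 genes, Benjamini-Hochberg adjustment over all of them, prior count 0.125 for log2 fold changes. Single values were compared by exact permutation tests (smallest two-sided p 0.1). DESeq2 1.42.0 was an alternative, as the authors' DESeq was not used here. Near-identical transcripts were searched with BLAST 2.17.0 in Gencode M21. Promoters came from RefSeq (GRCm38.p6). Levels per kb used the length of a single annotated transcript per gene. The script was tested on simulated data.

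The genes, lists and tests were chosen with earlier results of these data known. Genes given in every library are Zeb2, the cutting subunits and their counterparts, the activators, the lowest and highest gene by role (base and lid as 1 role), genes whose groups do not overlap, the highest and lowest by counts per kb, and the pathway genes with the 3 smallest unadjusted p in each direction, with Nfe2l1, Pomp and Adrm1; Psmd1, Psmd3, Psmd4, Psmd14 and Akirin2 were added after their values were seen. Some of the pathway genes counted are not reported here by name. Alternatives were the test, size factors, no filter, robust dispersions, library sizes without mitochondrially encoded genes, a block for the replicate number, shares of counts, leaving out each library and, added after seeing the data, sums with copies. Depth was 37.3 to 51.1 M counts per library, of which 14.3 to 19.02 M lay outside the mitochondrially encoded genes.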

Additional observations from a re-analysis of the deposited data

How the results depend on the processing

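No alternative gave a proteasome gene with an adjusted p under 0.05, and the median log2 fold changes of the 39 genes, of the core and of the cap stayed above 0 in all alternatives run. Of 444 alternative values 16 were single genes whose sign turned, 6 were counts that moved by over 1.5 times, and the other 422 kept the sign of a gene or stayed within 1 SD for a median or ratio. The count of proteasome genes whose groups do not overlap, 2, ran from 2 to 9 when single libraries were left out, where all genes tested gave 10.9% to 23.0%; the 9 (23.1% of 39) came without Zeb2 fl/fl replicate 1, where all genes gave 23.0%. It was 5 (12.8%, all genes 6.84%) on shares of non-mitochondrial counts (Psmc3, Psmc4, Psmc5, Psmd4 and Psmd6). Without a filter on low counts the log2 fold change of Psmc6 was 0.011. Among the 28 genes followed through every alternative, leaving out single libraries turned the sign of 11: Psmb5 ran from -0.23 to 0.17, Psmb6 from -0.0063 to 0.12, Psmb10 from -0.020 to 0.17, Psme4 from -0.31 to 0.16, Psmc6 from -0.042 to 0.063, Psmd5 from -0.088 to 0.088, Psmd10 from -0.10 to 0.21, Ubb from -0.39 to 0.11, Nfe2l2 from -0.20 to 0.038, Nfe2l1 from -0.083 to 0.21 and Pomp from -0.088 to 0.17. Among genes that kept their sign, Psma8 ran from -0.71 to -0.19, Psma3 from 0.063 to 0.24 and Psme3 from 0.045 to 0.17. Causes other than the libraries left out were not tested. Same-numbered libraries deviated from their group means with correlations of 0.11, -0.17 and -0.16, and 0 of 6 libraries correlated best with the one of its own number. The labels state no pairing. Correlations taken from means of 3 libraries cannot decide whether same-numbered mice were paired. With the replicate block 0 proteasome genes passed, the median was 0.057, and 247 genes in place of 280 had an unadjusted p under 0.05. Without a filter 600 genes did, and without Zeb2 fl/fl replicate 1 1134 did. With 118 counts, Psma8 had the least depth of the 39 genes and the widest interval. Counting error and the spread between mice were not separated.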

Other observations

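Vcp, the ATPase that extracts ubiquitin-tagged proteins for the proteasome, had the widest standard error of the pathway genes, and it is given here after its values were seen. It lay at 37.0, 17.9 and 25.1 CPM in Zeb2 fl/fl and at 36.6, 21.7 and 8.51 CPM in Zeb2 cKO hearts, a 4.35-fold range over the 6 libraries (log2 fold change -0.26, SE 0.51, edgeR adjusted p = 0.957; -0.48 without Zeb2 fl/fl replicate 2). Its transcript shares 73.0% with the processed pseudogene Vcp-rs on the X chromosome, which held 64.8% of the counts of both. Vcp-rs stood at 42.2, 33.2 and 48.5 CPM in Zeb2 fl/fl and at 38.2, 46.8 and 53.7 CPM in Zeb2 cKO hearts. Summed, they were at 79.2, 51.1 and 73.6 CPM in Zeb2 fl/fl and 74.8, 68.5 and 62.2 CPM in Zeb2 cKO hearts, a 1.55-fold range, with a log2 fold change of 0.012 (SE 0.19, adjusted p = 0.997). The sum was lowest in Zeb2 fl/fl replicate 2, and its fold change without that library is not given here. In Zeb2 cKO replicate 3 Vcp was lowest and Vcp-rs highest of the 6 libraries.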
